A study of Mus musculus with 18 samples.

Results

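The genes described here are 10 members of the CXC and CX3C chemokine system of the mouse: the ligand genes Cxcl1, Cxcl9, Cxcl10, Cxcl12, Cxcl13, Cxcl14, Cxcl16 and Cx3cl1 and the receptor genes Cxcr3 and Cxcr4. They were given as a list of gene symbols, and all 10 were found among the 30072 genes of the tables. Of these, 9 were among the 15054 genes with enough reads to be tested, and Cxcl13 was below that limit of reads, 0.23 CPM in at least 6 mice (CPM, counts for each 1e+06 counts of the library).

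Chemokines are small proteins that guide leukocytes through G protein-coupled receptors, and the CXC and CX3C classes are named for the spacing of conserved cysteines. CXCL9 and CXCL10 are interferon-inducible ligands of CXCR3, a receptor of activated T cells and NK cells, whereas CXCL12 is made constitutively by stromal and endothelial cells and signals through CXCR4. CXCL16 and CX3CL1 are made as membrane-anchored proteins on a stalk, which ADAM10 and ADAM17 can cut to release a soluble ligand.

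RNA was sequenced from the interventricular septum of adult CD-1 mice, an outbred strain, of both sexes and at least 8 weeks old. The control group (ctrl, n = 6) was given isoflurane anesthesia and, as in all sham animals of the study, CT imaging, without the dose to the heart. The labels give no sampling time for the controls. The 2 irradiated groups received a single 25 Gy dose to the heart under the same anesthesia and were sampled after 2 weeks (2wk, n = 6) or 6 weeks (6wk, n = 6). The labels name no transgene, the sex of each mouse is not given in the labels, and the labels name littermate controls without saying which mice were littermates. The study asked how the transcriptome of the irradiated heart differed from control at each time, and both comparisons with control use the same 6 control mice.

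Each library held between 11522979 and 15501002 estimated counts (median 13682439). Below 3 counts a value is hard to tell from 0. Before any scaling between mice, 3 counts corresponded to 0.194 to 0.26 CPM depending on the mouse. Apart from this level and the limit of reads for testing, CPM values here are scaled between mice by trimmed mean of M values (TMM). TPM, the corresponding transcript unit that also corrects for gene length, are used to compare genes. The share of counts from mitochondrially encoded genes had a median of 23.2% in control, 20.2% at 2 weeks and 17.4% at 6 weeks. Without TMM the median of all genes was not at 0: in the 3 comparisons (2 weeks and 6 weeks with control, 6 with 2 weeks) it stood at 0.15, 0.24 and 0.11 on the log2 scale with library size only, and at 0.18, 0.29 and 0.11 on log2(TPM + 1). Cardiomyocyte markers (Myh6, Myl2, Tnnt2 and 5 others) were abundant in every mouse. Atrial markers (Nppa, Myl7, Myl4 and Sln) were highest in mouse 5 of the 2 week group (2685 summed TPM) and control mouse 4 (2499 TPM), against at most 1360 TPM in the other mice.

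Cxcl9 and Cxcl10 lie 18.6 kb apart on the minus strand of chromosome 5 (GRCm38; Cxcl9 at chr5:92321347-92328079, Cxcl10 at chr5:92346638-92348889), and Cxcl11 lies 10.7 kb beyond Cxcl10. Cxcl1 (chr5:90891241-90893115) and Cxcl13 lie on the same chromosome. The 250 bases upstream of the RefSeq transcription start are shown for Cxcl9 and Cxcl10, since these neighbouring genes had the largest 6 week differences among the 10 genes, and for Cxcl1, whose window holds a motif that the Cxcl10 window shares (GRCm38.p6; Cxcl9 chr5:92328080-92328329 minus strand, Cxcl10 chr5:92348890-92349139 minus strand, Cxcl1 chr5:90890995-90891244 plus strand, its end reaching just into the gene as GENCODE annotates it). Each is written 5′ to 3′ on the strand of the gene, and capitals mark a match to a searched motif.
Cxcl9: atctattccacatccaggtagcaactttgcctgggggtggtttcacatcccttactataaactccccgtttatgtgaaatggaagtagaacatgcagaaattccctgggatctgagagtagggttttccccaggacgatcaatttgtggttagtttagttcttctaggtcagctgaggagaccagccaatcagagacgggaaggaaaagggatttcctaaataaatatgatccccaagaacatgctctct
Cxcl10: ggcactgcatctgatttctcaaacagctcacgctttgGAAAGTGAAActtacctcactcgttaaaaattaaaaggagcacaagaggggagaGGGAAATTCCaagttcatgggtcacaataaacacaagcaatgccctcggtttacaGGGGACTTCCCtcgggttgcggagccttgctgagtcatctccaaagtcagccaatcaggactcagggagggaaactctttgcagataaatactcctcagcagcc
Cxcl1: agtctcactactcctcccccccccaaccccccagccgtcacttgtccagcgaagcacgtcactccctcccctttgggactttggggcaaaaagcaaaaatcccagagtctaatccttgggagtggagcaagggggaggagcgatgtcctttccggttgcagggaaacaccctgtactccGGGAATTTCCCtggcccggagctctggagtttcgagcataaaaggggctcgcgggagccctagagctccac

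The motifs searched on both strands were the interferon-gamma-activated site GAS (TTCNNNGAA), the core of the interferon-stimulated response element ISRE (TTTC, any pair of bases, then TTTC) and the consensus NF-kB site. RefSeq windows were found for 9 of the 10 genes (not Cxcl16). In the Cxcl10 window, an ISRE core match began 213 bases upstream of the start, an NF-kB match began 159 bases upstream, and a pair of overlapping NF-kB matches began 104 and 103 bases upstream. In the Cxcl1 window a pair of overlapping NF-kB matches began 71 and 70 bases upstream. The Cxcl9 window held no match to the 3 motifs as spelled, and the Cxcl14 window held 1 GAS and 1 ISRE core match. Over all 32851 RefSeq windows of this length outside chromosome 18, 7.02% held a GAS match, 2.98% an ISRE core match and 7.25% an NF-kB match. Among the 9 windows of the chemokine genes the numbers were 1, 2 and 2. A match describes the letters and not a bound site.

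At 6 weeks post-IR, transcripts of 6 of the 9 genes tested were higher than in control (Cxcl10, Cxcl9, Cxcr3, Cxcl16, Cxcl1 and Cx3cl1) and none was lower at an adjusted P under 0.05, where 25% of all genes tested passed, 13.5% higher and 11.5% lower. The control and 6 week groups did not overlap for 3 genes (Cxcl9, Cxcl10 and Cxcl16), which was true of 9.23% of all genes (5.8% with higher values). At 2 weeks, 2 of 9 passed, Cxcl16 higher and Cxcl12 lower, against 5.02% of all genes (3.09% higher, 1.93% lower), and no gene of the 9 was without overlap (3.24% of all genes, 1.96% with higher values). From 2 to 6 weeks, Cxcl9, Cxcl10 and Cxcl16 were higher (3 of 9, against 5.33% of all genes, 3.31% higher and 2.01% lower), and these were also the 3 genes without overlap between the 2 irradiated groups (3.54% of all genes, 2.27% with higher values). The median log2 fold change of the 9 genes was 0.04 at 2 weeks, 1.09 at 6 weeks and 0.66 from 2 to 6 weeks, where the median of all genes tested was 0.00, −0.02 and 0.00. Without the 2 mice of highest atrial marker level, 2, 6 and 5 of the 9 genes passed in the 3 comparisons, against 543, 3855 and 858 of all 15054 genes.

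**Figure D1:**
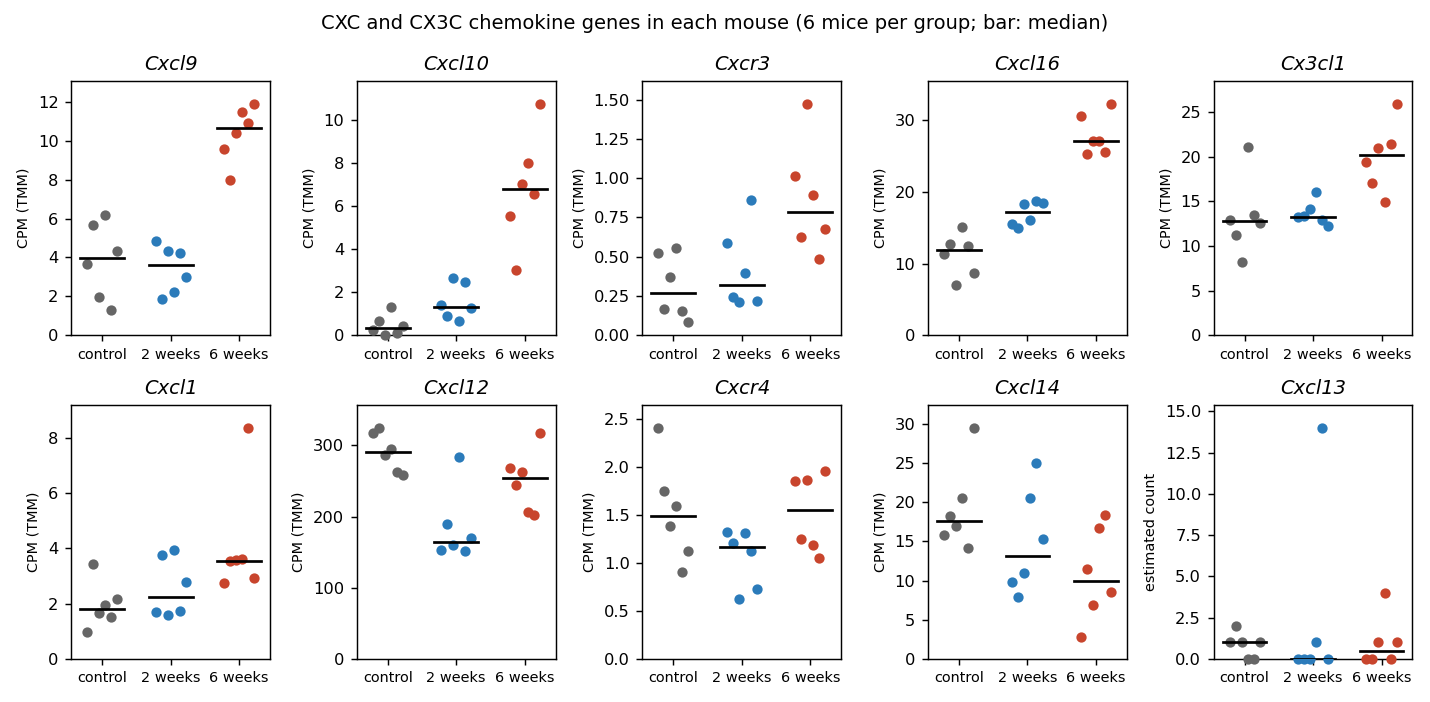
Level of each of the 10 chemokine genes in each mouse, in TMM-scaled CPM (estimated counts for Cxcl13, which was not tested), with 1 point per mouse in the order of replicate number and a bar at the group median (n = 6 per group). For Cxcl9, Cxcl10 and Cxcl16 each 6 week mouse lies above each control and each 2 week mouse, whereas Cxcl12 is lowest in 5 of the 6 mice at 2 weeks.

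Among the 9 genes tested, Cxcl10 showed the largest difference at 6 weeks. Cxcl9, Cxcr3 and Cxcl16 followed at close log2 fold changes (1.42, 1.40 and 1.31). Cxcl10 ranged from 0 to 1.32 CPM in control (median 0.346), from 0.654 to 2.64 CPM at 2 weeks (median 1.32) and from 3.05 to 10.8 CPM at 6 weeks (median 6.82). Every 6 week mouse was above every other mouse, while the control and 2 week groups overlapped through control mice 2 and 4. The control values rested on few reads: control mouse 3 had 0 counts, control mouse 5 had 1 and the group summed to 37, compared with 132 at 2 weeks and 561 at 6 weeks. Cxcl10 rose 14-fold at 6 weeks (3.81 on the log2 scale ± 0.46 SE, adjusted P = 1.2e-05) and 4.35-fold from 2 to 6 weeks (log2 2.12 ± 0.36, adjusted P = 0.0038). At 2 weeks the log2 fold change was 1.69 ± 0.56 and did not pass (adjusted P = 0.091), although it passed in 4 of 12 other settings and when control mouse 4 was left out (log2 2.41, adjusted P = 0.030).

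Cxcl9 had a different course. It ranged from 1.29 to 6.18 CPM in control (median 3.98), from 1.85 to 4.84 CPM at 2 weeks (median 3.62) and from 7.98 to 11.9 CPM at 6 weeks (median 10.7). The 2 week values lay within the control range, and all 6 mice at 6 weeks lay above both groups. Cxcl9 rose 2.68-fold at 6 weeks (log2 1.42 ± 0.27, adjusted P = 0.00088) and 3.02-fold from 2 to 6 weeks (log2 1.60 ± 0.27, adjusted P = 0.0038). At 2 weeks its log2 difference was −0.17 ± 0.30 (adjusted P = 0.80), a sign that turned under voom, both TPM scales and without control mouse 4, with values from 0.01 to 0.19.

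Cxcl11, the remaining CXCR3 ligand gene, is annotated in this genome as a polymorphic pseudogene and was near the limit of detection. Its 6 mice summed to 7 counts in control, 17 at 2 weeks and 38 at 6 weeks, with at most 15 counts in a mouse. It passed at 6 weeks (log2 2.23 ± 0.64, adjusted P = 0.011), with overlapping groups, and did not pass at 2 weeks (log2 1.08 ± 0.76, adjusted P = 0.44). However, no control mouse reached the 0.23 CPM of the limit of reads (highest TMM-scaled value 0.151 CPM). Cxcl11 was thus tested only through irradiated mice, where it was higher, which favours such a call. With voom the 6 week call was lost (adjusted P = 0.076).

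Cxcr3, the receptor of these ligands, was low throughout. It ranged from 0.0863 to 0.555 CPM in control (median 0.268), from 0.209 to 0.862 CPM at 2 weeks (median 0.317) and from 0.483 to 1.47 CPM at 6 weeks (median 0.783), which is 1 to 19 counts in a mouse. The 6 week mice overlapped with the higher controls (mice 1 and 4) and with mice 1 and 5 of the 2 week group. Cxcr3 rose 2.64-fold at 6 weeks (log2 1.40 ± 0.41, adjusted P = 0.017), but neither 2 weeks (log2 0.39 ± 0.47, adjusted P = 0.69) nor the change from 2 to 6 weeks (log2 1.01 ± 0.38, adjusted P = 0.12) passed.

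The summed level of markers of the cells that carry CXCR3 was also higher at 6 weeks. The summed TPM of 12 T and NK cell markers had a median of 1.53 (1.09 to 2.34) in control, 2.24 (1.27 to 5.02) at 2 weeks and 6.13 (4.97 to 12.6) at 6 weeks (exact permutation test of 6 weeks against control, two-sided, P = 0.0022, the smallest this design can give; adjusted P = 0.010 over 33 tests). By edgeR only 6 of the 12 markers had enough reads to be tested. Of these, 3 were higher at 6 weeks and 3 did not pass, where 13.5% of all genes were higher. The defining genes were nonetheless close to 0: Cd3d reached at most 7 counts and Cd3g at most 5, and they were at 0 in 7 and 8 of the 18 mice. In such bulk samples more cells of a type and more RNA per cell cannot be told apart, and the part of these cells in the Cxcr3 and ligand values was not tested.

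Within groups, Cxcl9 and Cxcl10 varied together. After subtraction of each group mean, the correlation of their log2 CPM over the 18 mice was r = 0.87, the highest of the 36 pairs among the 9 genes (median r = 0.14, lowest −0.48). Over all genes tested, those nearest to Cxcl10 by this measure were Ly6e (r = 0.88), a surface protein gene induced by interferon, Cxcl9, and Clec4a2 (r = 0.84), a C-type lectin receptor gene of myeloid cells. Those nearest to Cxcl9 were Cxcl10, Zfp146 (r = 0.82) and Zfp619 (r = 0.81), the last 2 encoding zinc finger proteins. For Cxcr3 the nearest genes were Fam171b (r = 0.81), Sephs1 (r = 0.81) and Clip4 (r = 0.81), and its few counts make this order uncertain. These correlations are descriptions over 18 points that share library depth and scaling.

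**Figure D2:**
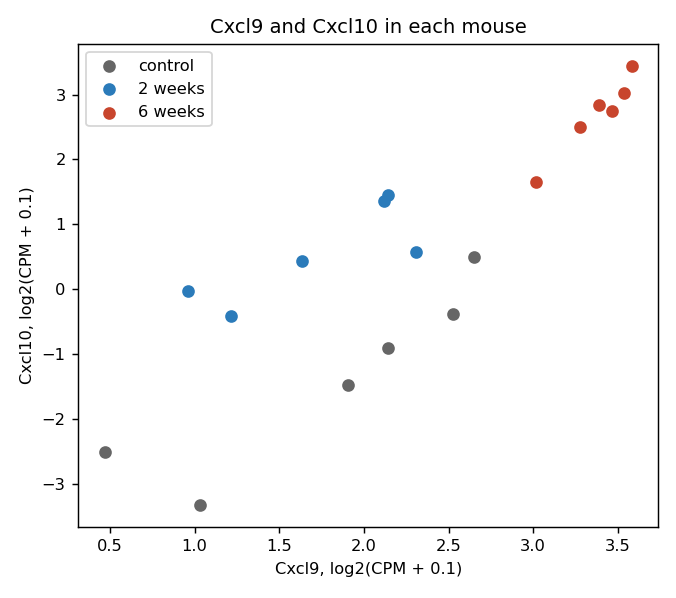
Cxcl10 against Cxcl9 in each of the 18 mice, both as log2(CPM + 0.1), coloured by group. The 6 week mice form a separate cluster at high values of both genes, while the 2 week mice have Cxcl9 values within the control range.

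Cxcl16, which binds CXCR6 and also acts as a scavenger receptor on macrophages, passed the test in all 3 comparisons. It ranged from 7.03 to 15.1 CPM in control (median 11.9), from 14.9 to 18.8 CPM at 2 weeks (median 17.2) and from 25.3 to 32.3 CPM at 6 weeks (median 27.2). Only control mouse 4 reached into the 2 week range, and the 6 week mice were above all others. Cxcl16 rose 1.51-fold at 2 weeks (log2 0.59 ± 0.14, adjusted P = 0.019), 2.48-fold at 6 weeks (log2 1.31 ± 0.14, adjusted P = 3e-06) and 1.65-fold from 2 to 6 weeks (log2 0.72 ± 0.13, adjusted P = 0.0061). All 3 calls held in the 12 other settings and with any 1 mouse left out.

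Its receptor gene Cxcr6 had a median of 1.51 TPM in control, 1.98 TPM at 2 weeks and 2.55 TPM at 6 weeks and did not pass at 6 weeks (log2 0.24 ± 0.15, adjusted P = 0.29), except with library size only or on the TPM scales. Of the proteases that shed CXCL16 and CX3CL1, Adam10 rose slightly at 6 weeks (log2 0.33 ± 0.07, adjusted P = 0.0025), whereas Adam17 had a log2 difference of 0.20 ± 0.21 (adjusted P = 0.53). The genes nearest to Cxcl16 within groups were Myo1g (r = 0.96), which encodes a myosin of blood cells, Laptm5 (r = 0.91), a lysosomal protein gene of leukocytes, and C1qb (r = 0.90), a complement gene of macrophages, over 18 mice and with no test.

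The 10 macrophage markers moved alongside. Their summed TPM had a median of 167 (107 to 375) in control, 302 (253 to 338) at 2 weeks and 462 (399 to 575) at 6 weeks, with no overlap of the 6 week mice with either group (exact permutation test, two-sided, P = 0.0022 in both, adjusted P = 0.010). By edgeR, 8 of the 10 were higher at 6 weeks and 1 was lower, where 13.5% of all genes were higher and 11.5% lower. Control mouse 4, the highest control for Cxcl16, Cx3cl1, Cxcl9 and Cxcl10, was also the highest control for this sum (375). It was likewise the highest control for the monocyte and dendritic cell (7.30 TPM), fibroblast (1038) and atrial (2499) sums. Its cardiomyocyte marker sum (28580) was the lowest of the controls. The T and NK cell, B cell, neutrophil, endothelial, mural and erythroid sums were highest in other control mice. The part of macrophages in the Cxcl16 result was not tested.

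Cx3cl1, the fractalkine gene, which tethers and attracts CX3CR1-bearing monocytes from endothelium, ranged from 8.24 to 21.1 CPM in control (median 12.7), from 12.2 to 16.1 CPM at 2 weeks (median 13.3) and from 15.0 to 25.9 CPM at 6 weeks (median 20.2). Control mouse 4, at 21.1 CPM, was the only control within the 6 week range, since the other controls reached at most 13.5 CPM. Cx3cl1 rose 1.5-fold at 6 weeks (log2 0.58 ± 0.17, adjusted P = 0.015) and did not pass at 2 weeks (log2 0.04 ± 0.17, adjusted P = 0.93), with a sign that turned when control mouse 2 or 3 or mouse 4 of the 2 week group was left out. From 2 to 6 weeks the log2 difference was 0.55 ± 0.17 (adjusted P = 0.061), and it passed in 6 of 12 other settings.

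Its receptor gene Cx3cr1, a marker of monocytes and resident macrophages, ranged from 0.833 to 9.85 CPM in control (median 3.54), from 5.11 to 12.7 CPM at 2 weeks (median 8.00) and from 10.2 to 28.1 CPM at 6 weeks (median 14). The 6 week mice lay above every control. Cx3cr1 rose at 6 weeks (log2 1.89 ± 0.36, adjusted P = 0.00078), and at 2 weeks its log2 difference of 0.97 ± 0.37 did not pass (adjusted P = 0.14). The summed level of 7 monocyte and dendritic cell markers rose from a median of 3.20 TPM (2.79 to 7.30) in control to 20.4 TPM (13.0 to 31.4) at 6 weeks, and that of 7 endothelial markers from 394 (335 to 490) to 603 (513 to 750), both without overlap (exact permutation test, two-sided, P = 0.0022, adjusted P = 0.010). By edgeR, which scales out the median shift of TPM, 5 of the 7 monocyte and dendritic cell markers were higher and 2 did not pass at 6 weeks. Likewise by edgeR, 2 of the 7 endothelial markers were higher, 2 were lower and 3 did not pass at 6 weeks. Of all genes, 13.5% were higher and 11.5% lower in that comparison. The part of these cells in the Cx3cl1 and Cx3cr1 values was not tested.

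Cxcl1, a neutrophil chemoattractant of the CXCR2 group, ranged from 0.976 to 3.42 CPM in control (median 1.80), from 1.60 to 3.92 CPM at 2 weeks (median 2.26) and from 2.75 to 8.37 CPM at 6 weeks (median 3.55). Mouse 5 of the 6 week group stood apart at 8.37 CPM (104 counts), while the other 5 mice of that group lay between 2.75 and 3.63 CPM. Cxcl1 rose 2.12-fold at 6 weeks (log2 1.09 ± 0.33, adjusted P = 0.023). The call was lost without that mouse (log2 0.77, adjusted P = 0.060) or without control mouse 1, the lowest control (log2 0.93, adjusted P = 0.053). The log2 difference was 0.42 ± 0.35 at 2 weeks (adjusted P = 0.54) and 0.66 ± 0.31 from 2 to 6 weeks (adjusted P = 0.23).

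The related gene Cxcl2 passed at 6 weeks (log2 2.19 ± 0.46, adjusted P = 0.00074) on 37 summed counts, against 7 in control and 8 at 2 weeks. The 4 to 12 counts of the 6 week mice were above the 0 to 3 counts of control mice in each case. However, Cxcl2 met the limit of reads for testing (0.23 CPM in at least 6 mice) only through the 6 week group. Its TMM-scaled CPM was 0.239 to 0.929 at 6 weeks, against at most 0.208 in control and 0.147 at 2 weeks. The lack of overlap was thus fixed by that limit. The receptor genes of Cxcl1 and Cxcl2 were hardly detected, with at most 2 counts for Cxcr1 and 7 for Cxcr2 in a mouse. Summed neutrophil markers had medians of 2.35, 2.36 and 2.77 TPM in control, 2 weeks and 6 weeks (exact permutation test of 6 weeks against control, two-sided, P = 0.53, adjusted P = 0.73), and the defining gene Ly6g had at most 1 count in a mouse. By edgeR 2 of these 6 markers were tested. At 6 weeks 1 was higher (log2 1.28) and 1 did not pass (log2 −0.91), where 13.5% of all genes were higher.

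Cxcl12, the stromal ligand of CXCR4, was the gene with lower levels early after irradiation. It ranged from 258.8 to 324.7 CPM in control (median 290.7), from 152.1 to 283.6 CPM at 2 weeks (median 164.4) and from 202.6 to 318.1 CPM at 6 weeks (median 253.8). All 2 week mice but mouse 4 lay between 152.1 and 189.8 CPM, below every control and every 6 week mouse, whereas that mouse, at 283.6 CPM, lay within both ranges. Cxcl12 fell by 36.5% at 2 weeks (log2 −0.66 ± 0.14, adjusted P = 0.012). The call held with any 1 mouse left out but not on the TPM scales, where the log2 difference was −0.33 to −0.34 (limma, adjusted P = 0.12 and 0.11). At 6 weeks the log2 difference from control was −0.22 ± 0.14 (adjusted P = 0.29), with a sign that turned to 0.05 with library size only and to 0.23 and 0.24 on the TPM scales. From 2 to 6 weeks it was 0.44 ± 0.14 (adjusted P = 0.075), and without mouse 4 of the 2 week group it was 0.60 (adjusted P = 0.0097).

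The receptor gene Cxcr4 was low and showed no call. It ranged from 0.907 to 2.41 CPM in control (median 1.49), from 0.626 to 1.32 CPM at 2 weeks (median 1.17) and from 1.05 to 1.96 CPM at 6 weeks (median 1.55), with overlap of all groups. Its log2 difference was −0.56 ± 0.26 at 2 weeks (adjusted P = 0.24) and −0.02 ± 0.24 at 6 weeks (adjusted P = 0.97), the latter with a sign that turned in 4 of 12 other settings. Ackr3, which encodes the atypical receptor that takes up CXCL12, was lower at 6 weeks (log2 −0.43 ± 0.10, adjusted P = 0.0054), a call lost with library size only and on both TPM scales. Dpp4, a protease that trims CXCL12 and the CXCR3 ligands, had a log2 difference of 0.00 ± 0.16 at 6 weeks (adjusted P = 0.99).

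Fibroblast markers, a group of stromal genes, had overlapping sums at all times (medians 504, 604 and 637 TPM, exact permutation test, adjusted P = 0.93 and 0.77 for the irradiated groups). By edgeR 1 of these 6 markers was lower and 5 did not pass at each time. Their median log2 fold change was −0.08 at 2 weeks and −0.17 at 6 weeks. Mural cell markers had medians of 187, 285 and 235 TPM (adjusted P = 0.020 and 0.010, exact permutation test), while by edgeR none of the 6 passed at 2 weeks and 1 was higher at 6 weeks. With the median over the list of log2(TPM + 1) in place of the sum, the 2 week difference of the mural markers did not pass (exact permutation test, adjusted P = 0.055). Of all genes, 3.09% were higher and 1.93% lower at 2 weeks by edgeR, and 13.5% and 11.5% at 6 weeks. The part of these cells in the Cxcl12 values was not tested.

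Cxcl14, a ligand of uncertain receptor use that is made by stromal and epithelial cells, ranged from 14.2 to 29.5 CPM in control (median 17.6), from 7.94 to 25.0 CPM at 2 weeks (median 13.1) and from 2.80 to 18.3 CPM at 6 weeks (median 9.98). In total 4 of the 6 mice at 6 weeks lay below every control and mice 4 and 5 lay within the control range. The log2 difference was −0.84 ± 0.35 at 6 weeks (adjusted P = 0.087), which passed in 3 of 12 other settings and without mouse 4 or mouse 5 of the 6 week group, and −0.35 ± 0.34 at 2 weeks (adjusted P = 0.60). Cxcl13, the ligand of CXCR5 on B cells, summed to 5, 15 and 6 counts in the 3 groups, and 14 of the 15 counts at 2 weeks came from mouse 5, which also had the highest atrial marker level. Cxcr5 had at most 9 counts in a mouse and did not pass at 6 weeks (log2 1.64 ± 0.63, adjusted P = 0.059). The summed TPM of 6 B cell markers had medians of 0.711, 1.38 and 3.08 (6 weeks against control, exact permutation test, two-sided, P = 0.0065, adjusted P = 0.020, with overlap). By edgeR 4 of these 6 were tested, of which 2 were higher at 6 weeks and 2 did not pass (13.5% of all genes were higher).

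**Figure D3:**
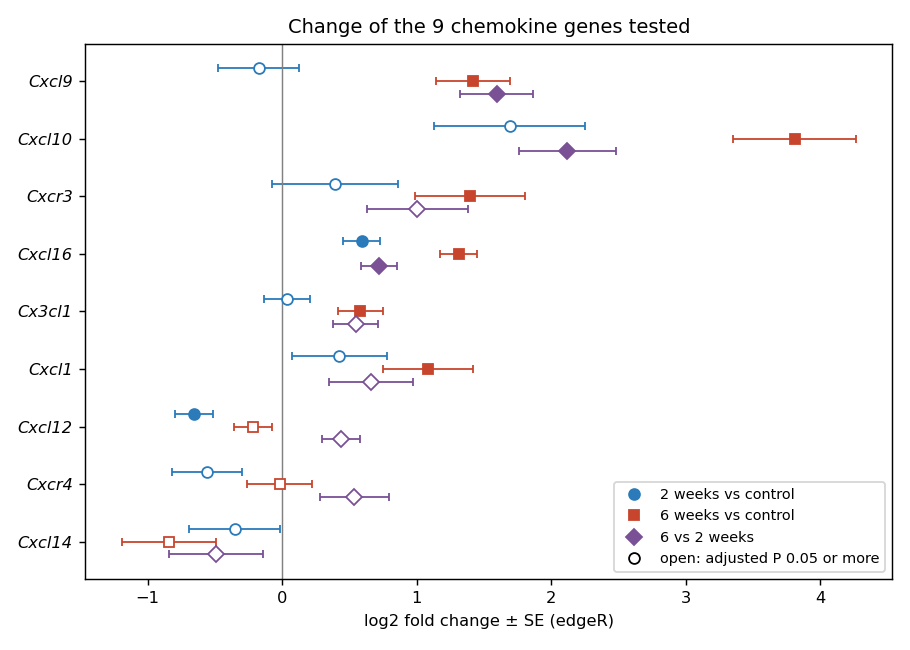
Log2 fold change with its standard error for the 9 genes tested, at 2 weeks against control (circles), 6 weeks against control (squares) and 6 against 2 weeks (diamonds), with filled symbols for an adjusted P under 0.05. Cxcl10 has the largest difference at 6 weeks and Cxcl12 the only filled symbol below 0. The signs of Cxcl9 and Cx3cl1 at 2 weeks and of Cxcl12 and Cxcr4 at 6 weeks turned under other settings.

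Compared per length, Cxcl12 was the most abundant of the genes in every group. Its median was 66.1 TPM in control, 48.3 TPM at 2 weeks and 81.8 TPM at 6 weeks, and its range did not overlap with that of the next gene, which was Cxcl14 in control (median 8.96 TPM) and Cxcl16 at 2 weeks (10.6 TPM) and 6 weeks (19.2 TPM). In control the order after these was Cxcl16 (6.94 TPM), Cx3cl1 (3.55 TPM), Cxcl1 (2.45 TPM), Cxcr4 (1.53 TPM), Cxcl9 (1.46 TPM), Cxcl10 (0.443 TPM), Cxcr3 (0.165 TPM) and Cxcl13 (0.0769 TPM). From Cxcl14 downward, each neighbouring pair in that order overlapped. Cxcl10 took rank 8 of 10 in control, rank 6 at 2 weeks (2.09 TPM) and rank 3 at 6 weeks (11.6 TPM), where it overlapped with Cxcl16 above it and Cx3cl1 below it (7.47 TPM).

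The 8 ligand genes together came to a median of 87.7 TPM (77.6 to 107.7) in control, 78.9 TPM (75.2 to 114.3) at 2 weeks and 132.1 TPM (114.5 to 168.5) at 6 weeks. Cxcl12 made up a median of 72.5% of this sum (66.0 to 78.9%) in control, 61.4% (51.2 to 67.5%) at 2 weeks and 58.1% (48.5 to 62.5%) at 6 weeks, so that the control and 6 week ranges did not overlap. The share of Cxcl10 had a median of 0.49% (0 to 1.57%), 2.69% (0.84 to 5.25%) and 8.68% (4.22 to 11.2%) in the same order. The share of Cxcl16 was 6.98% (5.43 to 9.78%), 12.6% (8.76 to 15.8%) and 14.3% (12.8 to 17.5%). Cxcl14 went from 9.40% (8.59 to 17.9%) to 4.81% (1.42 to 9.11%) between control and 6 weeks. By counts, without correction for gene length, the 6 week median was 2.16% for Cxcl10, 8.41% for Cxcl16 and 77.6% for Cxcl12. The shares are within each mouse and so do not depend on the scaling between mice, and they were not tested.

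**Figure D4:**
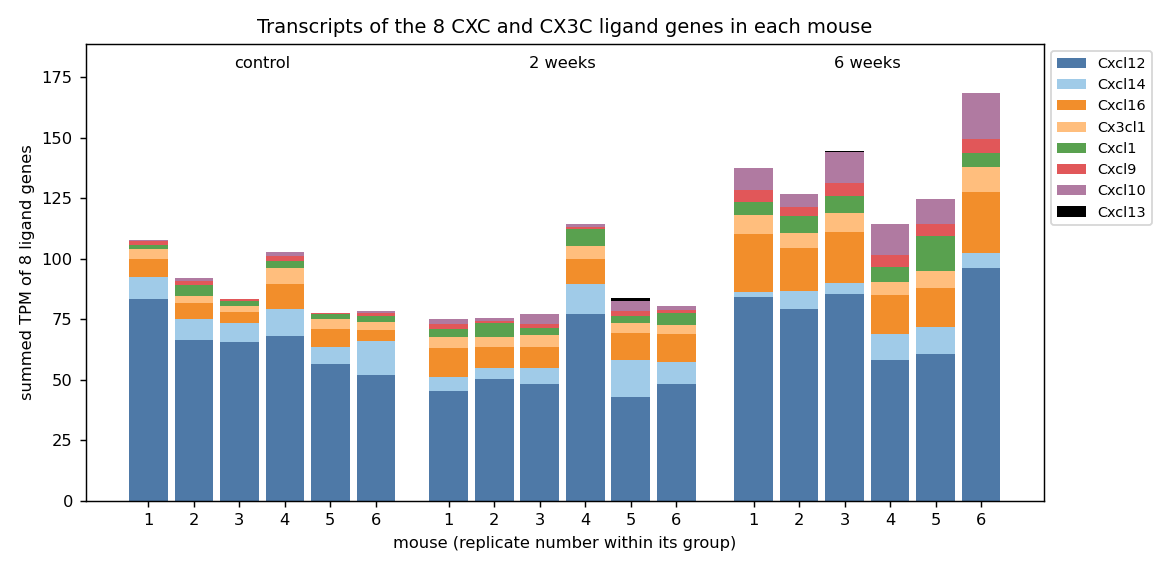
Summed TPM of the 8 ligand genes in each mouse, stacked by gene, with the mice in the order of replicate number within each group. Cxcl12 is the largest part in each mouse, and the parts of Cxcl10 and Cxcl16 are larger at 6 weeks, when the sum lies between 114.5 and 168.5 TPM.

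Beyond the genes of main interest, 20 further ligand and receptor genes of the CXC, CX3C, XC and atypical classes were examined, of which 12 were tested. At 6 weeks 2 of the 4 ligand genes tested, Cxcl11 and Cxcl2, were higher (13.5% of all genes were higher and 11.5% lower). Cxcl2 was among the genes tested only because of its 6 week values, and Cxcl11 only because of its values in irradiated mice. This count thus rests on genes that met the limit of reads only where they were high. Pf4, the platelet factor gene, and Ppbp had log2 differences of 0.08 and 0.17 that did not pass. Of 8 receptor genes, 3 were higher and 1 (Ackr3) was lower. The higher ones were Cx3cr1, Xcr1, the XCL1 receptor gene of cross-presenting dendritic cells (log2 1.09 ± 0.32, adjusted P = 0.018, lost without mouse 6 of the 6 week group, adjusted P = 0.052), and Ackr2, a scavenger of inflammatory CC chemokines (log2 1.01 ± 0.20, adjusted P = 0.0011, with no overlap). None of the 12 passed at 2 weeks, where 5.02% of all genes did. The other 8 genes (Cxcl3, Cxcl5, Cxcl15, Cxcl17, Xcl1, Cxcr1, Cxcr2 and Ackr1) had at most 7 counts in a mouse.

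Interferon-gamma signals through JAK1 and JAK2, and both Cxcl9 and Cxcl10 are known targets. Several genes of interferon signalling differed at 6 weeks. Irf7, an interferon regulatory factor gene, ranged from 3.61 to 12.1 CPM in control (median 6.74), from 11.5 to 33.1 CPM at 2 weeks (median 20.7) and from 26.5 to 138.5 CPM at 6 weeks (median 83.8), and rose by a log2 fold change of 3.51 ± 0.40 (adjusted P = 8.8e-06). Irf9 (log2 1.20 ± 0.23, adjusted P = 0.00092) and Stat2 (log2 1.15 ± 0.20, adjusted P = 0.00033) rose as well, and for each of these 3 genes the 6 week mice lay above all controls. Socs1, a feedback inhibitor, also passed (log2 0.86 ± 0.26, adjusted P = 0.019), though not without mouse 3 of the 6 week group (adjusted P = 0.053). Ifngr2, a subunit of the receptor, was lower (log2 −0.33 ± 0.05, adjusted P = 0.00024), a call lost with library size only and on both TPM scales, with a positive sign in 2 of these 3 settings. Ifng itself had at most 1 count in a mouse.

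At 2 weeks, Irf7 (log2 1.48 ± 0.40, adjusted P = 0.037) and Irf9 (log2 0.83 ± 0.23, adjusted P = 0.043) passed. These calls were lost in 11 and 12 of 30 alternatives, most of which left out 1 mouse. From 2 to 6 weeks, Irf7 was higher (log2 2.03 ± 0.37, adjusted P = 0.0057) while Irf9 had a log2 difference of 0.36 ± 0.22 (adjusted P = 0.38).

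NF-kB is a factor family known to induce Cxcl1 and Cxcl2, and its part in their values here was not tested. The NF-kB list had 11 genes tested and smaller differences. At 6 weeks 4 were higher, against 13.5% of all genes, and none was lower: Tnfaip3, a feedback inhibitor (log2 0.57 ± 0.18, adjusted P = 0.027), Relb (log2 0.45 ± 0.12, adjusted P = 0.012), Nfkb2 (log2 0.33 ± 0.07, adjusted P = 0.0027) and Rela (log2 0.33 ± 0.07, adjusted P = 0.0033). The Tnfaip3 call was lost without control mouse 3, control mouse 5 or mouse 6 of the 6 week group, and when only the 2 groups compared were fitted. At 2 weeks 1 of the 11, Nfkb2, passed (log2 0.31 ± 0.07, adjusted P = 0.019), against 3.09% of all genes higher.

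Genes that act downstream of chemokine receptors included 15 higher and none lower of 20 tested at 6 weeks, 3 higher at 2 weeks and 5 higher from 2 to 6 weeks. Of all genes, 13.5%, 3.09% and 3.31% were higher in these comparisons. The largest 6 week differences were in genes used by leukocytes: Rgs14, a regulator of G protein signalling (log2 1.67 ± 0.29, adjusted P = 0.00035), Dock2 (log2 1.63 ± 0.23, adjusted P = 6.2e-05), which activates RAC in migrating leukocytes, Rac2 (log2 1.57 ± 0.22, adjusted P = 6.9e-05) and Vav1 (log2 1.33 ± 0.19, adjusted P = 5.9e-05). The 6 week mice lay above all controls for each of the 4. The median log2 fold change of the list was 0.46, compared with 0.11 for the NF-kB list.

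**Figure D5:**
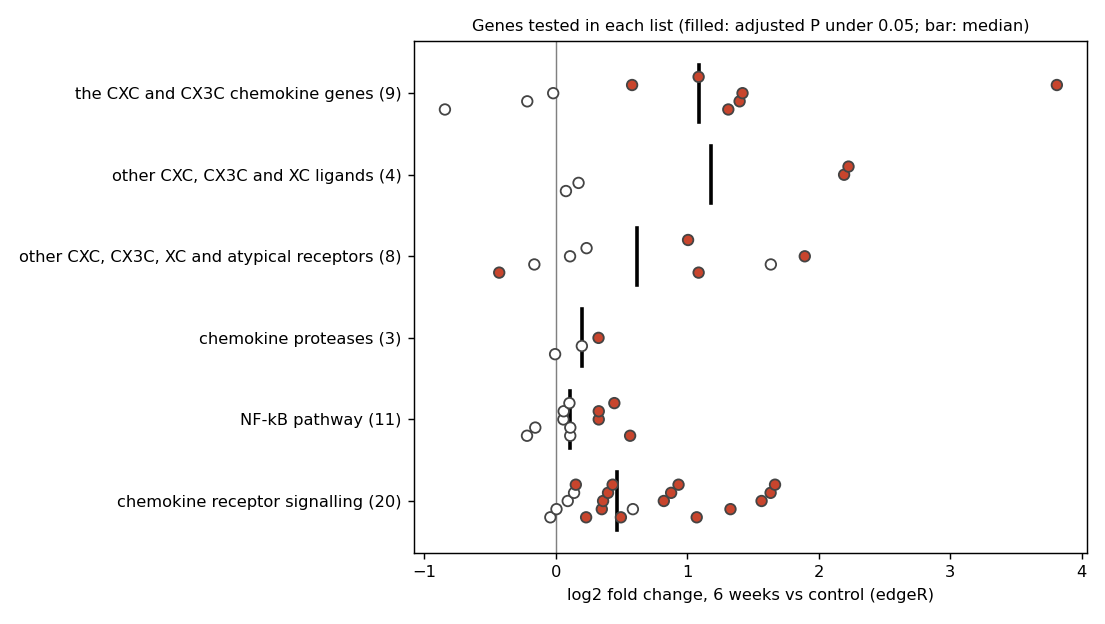
Log2 fold change at 6 weeks against control of each gene tested in 6 lists, with filled points for an adjusted P under 0.05, a bar at the list median and the number of genes in parentheses. Cxcl10 (3.81) lies farthest to the right, and the NF-kB genes lie between −0.22 and 0.57; the lower value of Ackr3 (−0.43) was not called with library size only or on the TPM scales.

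Cardiomyocyte markers, the bulk of the tissue, had summed medians of 36550, 36510 and 33490 TPM in the 3 groups, with overlap between control and 6 weeks (exact permutation test, two-sided, P = 0.33, adjusted P = 0.52), while the median over the list of log2(TPM + 1) passed (exact permutation test, adjusted P = 0.046). By edgeR all 8 of these markers were lower at 6 weeks, against 11.5% of all genes, with a median log2 fold change of −0.46. Atrial and erythroid marker sums overlapped between control and each irradiated group. By edgeR 1 of the 3 erythroid markers was lower at 6 weeks and 2 did not pass (median log2 fold change −2.05). None of the 4 atrial markers passed (median −0.78). The part of a changed cell composition in the values of the chemokine genes was not tested.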

How the data were processed

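RNA-seq of 18 septum samples (6 control, 6 at 2 weeks, 6 at 6 weeks) was analysed. According to the study's methods and the submitters' processing notes, the authors used STAR for alignment to GRCm38, Salmon 1.0 for transcript abundance and tximport for gene sums. The authors deposited estimated counts per gene, which were rounded to whole numbers here, and TPM values, which were used as deposited. Estimates by gene let reads of near-identical family members be shared between them. Whether counting used strand is not given in the sources used here.

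A gene was tested if 6 or more mice reached 0.23 CPM (15054 of 30072; 29301 IDs had a symbol in the GENCODE M21 annotation of GRCm38, used for names and positions). One 3-group fit of edgeR 4.0.16 (quasi-likelihood F test, TMM, two-sided, R 4.3.3) gave all 3 comparisons. P values were adjusted by Benjamini-Hochberg over all genes tested, the threshold was 0.05, and each adjusted P without another test name is from this fit. Fold changes are given with SE. P values measure the spread between the samples of a group, which the study describes as biologically independent. The fit was tested on simulated counts. Marker sums were compared with exact permutation tests, adjusted over 33 tests.

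Alternatives were DESeq2 1.42.0, voom and log2(TPM + 1) or log2(TPM + 0.1) in limma 3.58.1, other scalings and filters, a replicate block, Y-linked expression as covariate, 2-group fits, each mouse left out, and, chosen after seeing the data, the 2 mice with the highest atrial markers left out. Replicate numbers are labels without a stated pairing. Upstream windows and motifs came from RefSeq starts on GRCm38.p6, and the strand was checked against transcripts.

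Not every gene of the interferon list is reported here, so no counts are given for that list. The genes and all lists were chosen with earlier results of these data known. Genes named from the lists were the receptors and ligands that pair with the 10 genes, up to 4 genes per list with the largest called 6 week differences, and, for the 4 genes with the largest called differences, the 3 genes nearest by within-group correlation of log2 CPM (prior count 2). Adam17, Dpp4, Pf4, Ppbp, Ifngr2, Socs1, the marker genes and the 2 week list calls were named besides this, after their values were seen.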

Additional observations from a re-analysis of the deposited data

Results flagged for a closer look

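Within the 27 combinations of gene and group examined (9 genes in 3 groups of 6 mice), 2 held a mouse whose gap to its nearest neighbour exceeded Dixon's 95% limit, where chance gives about 1 in 20. The first was Cxcl1 in mouse 5 of the 6 week group, at 8.37 CPM, where the next highest mouse had 3.63 CPM. The second was Cxcl12 in mouse 4 of the 2 week group, at 283.6 CPM, where the next highest had 189.8 CPM.

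For 3 genes the difference from control was not the same at 2 and 6 weeks, by a test of that difference in edgeR's quasi-likelihood fit. Cxcl9 was higher at 6 than at 2 weeks by a log2 fold change of 1.60 (adjusted P = 0.0038), Cxcl10 by 2.12 (adjusted P = 0.0038) and Cxcl16 by 0.72 (adjusted P = 0.0061), and in each case all 6 mice at 6 weeks were above all 6 mice at 2 weeks. Both differences from control rest on the same 6 control mice.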

How the results depend on the processing

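The numbers of chemokine genes called stayed at 2 to 3 (2 weeks) and 5 to 7 (6 weeks) in 12 other settings and with each of the 18 mice left out. From 2 to 6 weeks the number was 3, rising to 4 on log2(TPM + 0.1), in the 2-group fit and without control mouse 3 or 4, 2 week mouse 4 or 6 week mouse 4, and to 5 with DESeq2, voom, library size only, log2(TPM + 1) and without the 2 atrial-rich mice, where Cxcl12, Cx3cl1 or Cxcr3 were added. Cxcl9, Cxcl10 and Cxcl16 kept their 6 week calls throughout, and Cxcl1 lost its call without mouse 5 of the 6 week group (0.77) or control mouse 1 (0.93). Signs of uncalled log2 differences turned as follows: Cxcl9 at 2 weeks (voom 0.00715, TPM scales 0.0916 and 0.1924, one mouse left out −0.3565 to 0.0235, the latter without control mouse 4), Cx3cl1 at 2 weeks (one mouse left out, −0.0637 to 0.2199), Cxcl12 at 6 weeks (library size only 0.0505, TPM scales 0.2333 and 0.2362) and Cxcr4 at 6 weeks (voom 0.0772, library size only 0.2384, TPM scales 0.174 and 0.2537, one mouse left out −0.1315 to 0.1787). By the median over the list of log2(TPM + 1) in place of the sum, the sign of the mural (0.0773) and atrial (0.0557) differences from 2 to 6 weeks and of the erythroid differences at 2 weeks (1.06) and 6 weeks (0.16) turned, and the mural and the monocyte and dendritic cell differences at 2 weeks no longer passed (adjusted P = 0.055 in both, exact permutation test). The cause was not tested.

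List genes called at 2 weeks numbered 7, but 12 with DESeq2, 21 with library size only, 25 and 28 on log2(TPM + 1) and log2(TPM + 0.1), and 3 to 11 with one mouse left out (11 without control mouse 4, 3 without control mouse 3, 5 or 6 or 2 week mouse 5 or 6, 4 without 2 week mouse 1). From 2 to 6 weeks they numbered 10, but 6 without the count filter and 4 to 12 with one mouse left out (4 without 2 week mouse 1 or 2 or 6 week mouse 6, 5 without 2 week mouse 6, 6 without 2 week mouse 4 or 6 week mouse 3 or 5). Of all genes, 61.6%, 54% and 62.2% of calls in the 3 comparisons were higher, and 95.4%, 94.4% and 91.3% with library size only, whose median of all genes is shifted, and 98.6%, 98.4% and 95.6% on log2(TPM + 1). Over all genes 755 were called at 2 weeks, but 1229 with DESeq2, 1789 with library size only, 2813 and 3026 on the TPM scales and as few as 451 with one mouse left out. At 6 weeks 3760 were called, but 5820 with library size only and 7472 and 7463 on the TPM scales, and from 2 to 6 weeks 802, but as few as 330 with one mouse left out. By counts in place of TPM the share of Cxcl12 among ligand transcripts was 86.1%, 76.5% and 77.6%, that of Cxcl10 0.10%, 0.63% and 2.16% and that of Cxcl16 3.25%, 8.03% and 8.41%.

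The replicate number as a block left 2, 7 and 3 chemokine genes called and 3, 32 and 5 list genes. Over all 15054 genes tested, 586, 3549 and 542 were called in that setting. Same-numbered mice did not deviate together (r from −0.08 to 0.11, over 0.1 in 2 of 18 pairs), 3 of 18 mice correlated best with their own number, and the numbers were not taken as pairs. Depth limits the statements on Cxcr3, Cxcl11, Cxcl2 and Cxcl13, which had at most 19 counts in a mouse.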
